A study of Mus musculus with 4 samples.

Results

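The genes described here are those that encode a collagen chain, chosen as every row of the deposited table whose symbol reads Col, a number, the letter a and a number. The rule found 44 genes among 49568 in the table, of which 11 encode fibrillar chains, 9 network-forming chains (types IV, VIII and X) and 24 other chains. The series compared RNA from migrasomes with RNA from cytosol of mouse origin, with 2 libraries in each group. Migrasomes are vesicles that grow on the retraction fibres trailing behind a moving cell. No genotype, treatment, time or age distinguishes the groups in the labels, which differ only in the fraction sampled, and the sources used here give neither the cell type nor how the fractions were purified.

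Collagens are the main structural proteins of the extracellular matrix, and 3 chains wind around each other into a triple helix. The helix needs glycine as 1 of every 3 residues, the Gly-X-Y repeat, because only glycine fits in its core. Fibrillar chains carry 1 long unbroken helix and pack into the fibres of connective tissue, network chains have shorter or interrupted helices and form sheets such as the basement membrane, and the remaining types decorate fibrils, form beaded filaments or span the plasma membrane. Nearly all chains are secreted: a hydrophobic signal at the start of the protein directs the ribosome to the endoplasmic reticulum, where the chains are hydroxylated, glycosylated, folded and sent out.

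The repeat can be read directly in the coding sequences (GENCODE M21 transcripts, GRCm38), and a stretch of 30 codons is shown for 1 abundant fibrillar chain, 2 network chains, 1 chain of the beaded filaments and the transmembrane chain Col17a1, because these are the chains on which the results below turn. Each stretch is 90 bases from the start of the longest unbroken run of repeats, with the glycine codon (GGN) that opens each repeat in capitals, and codons are counted from 1 at the start codon.
Col1a2, codons 97 to 126: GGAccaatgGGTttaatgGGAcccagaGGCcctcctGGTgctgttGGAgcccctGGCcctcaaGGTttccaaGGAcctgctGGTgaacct
Col4a1, codons 43 to 72: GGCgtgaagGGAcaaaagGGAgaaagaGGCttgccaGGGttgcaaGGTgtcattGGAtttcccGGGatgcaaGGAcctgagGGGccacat
Col8a1, codons 352 to 381: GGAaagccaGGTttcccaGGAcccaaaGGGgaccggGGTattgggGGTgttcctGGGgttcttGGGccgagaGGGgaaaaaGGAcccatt
Col6a1, codons 256 to 285: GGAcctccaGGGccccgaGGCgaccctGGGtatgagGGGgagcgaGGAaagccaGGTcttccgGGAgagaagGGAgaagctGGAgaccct
Col17a1, codons 648 to 677: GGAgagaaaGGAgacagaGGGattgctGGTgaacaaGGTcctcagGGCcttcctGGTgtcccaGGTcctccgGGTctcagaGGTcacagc
The length of the longest run sets the fibrillar chains apart, while the ranges of the other classes overlap. In the 11 fibrillar chains the longest run had 216 to 344 repeats (median 338), in the 9 network chains 39 to 66 and in the 24 other chains 23 to 113.

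The starts of the coding sequences differ in another way. The first 25 codons of 4 of these chains are shown with codons that have T as their second base in capitals, which encode the hydrophobic residues phenylalanine, leucine, isoleucine, methionine and valine.
Col1a2: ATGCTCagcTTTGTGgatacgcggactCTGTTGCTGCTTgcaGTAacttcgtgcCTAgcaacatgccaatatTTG
Col4a1: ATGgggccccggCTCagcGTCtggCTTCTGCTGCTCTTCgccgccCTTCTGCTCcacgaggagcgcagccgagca
Col6a1: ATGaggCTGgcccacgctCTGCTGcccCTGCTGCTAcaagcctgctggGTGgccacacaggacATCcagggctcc
Col17a1: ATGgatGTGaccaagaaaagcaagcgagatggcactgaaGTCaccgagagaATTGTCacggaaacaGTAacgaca
After the start codon, Col1a2 has 10 such codons within the first 25, Col4a1 10, Col6a1 8 and Col17a1 5. The 4 transmembrane chains (Col13a1, Col17a1, Col23a1 and Col25a1) had 1 to 5 and the 40 other chains at least 4 (median 9). Col17a1 encodes type XVII collagen of the hemidesmosome, whose membrane anchor lies inside the protein and not at its start.

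The cytosol libraries held 7529136 and 8608369 gene reads and the migrasome libraries 5228713 and 5171092. Values are normalised read counts as deposited (gene reads over a size factor of the library), with replicate 1 first. A difference is the migrasome value minus the cytosol value after log2(value + 1), with its standard error (SE), and means carry the SD of n = 2 libraries. Of 10860 genes tested with limma (adjusted p of 0.05, Benjamini-Hochberg over all of them), 17.7% were lower in migrasome and 8.68% higher, and the median difference of all was -0.0043. Scaled to the same total, 2522 genes were lower and 322 higher, and by quantile normalization 1403 and 1194, against 1919 and 943. Separate cultures are not named in the labels, so the spread behind the p-values is that between these samples and may be technical. Endothelial and blood markers were near 0 in every library (each list summed to at most 8.92). Smooth muscle markers summed to 100.1 and 74.8 in cytosol and 187 and 108 in migrasome, nearly all from Des, with Myh11 at 0. Chondrocyte and osteoblast markers summed to 237 and 117 against 129 and 140, led by Runx2 and Sox9, with Acan and Bglap at 0, and none of these genes passed the test. The part of such transcripts in the collagen values was not tested. Of 8 fibroblast markers 6 were tested, led by S100a4 and Vim, of which Pdgfra and Pdgfrb fell and Vim rose, while Twist1 had no read and Fap 1.

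Of the 44 collagen genes 16 passed the filter on low values, 10 or more in 2 or more libraries. Of these 16, 15 fell in migrasome and none rose, beside 17.7% and 8.68% of all tested genes, with limma adjusted p-values from 0.00054 to 0.0058. For those 15 chains both migrasome libraries lay below both cytosol libraries, which was so for 36.3% of all tested genes. The median over the 16 was -1.96, with single differences from -2.24 to 0.51. These values are relative to the other RNA of a library, so less collagen mRNA and more of other RNA in a fraction cannot be told apart. Effects of cell mixture and of the purity of the fractions cannot be told apart either. All 15 calls were kept in each of the 14 alternative settings, and edgeR on the recovered reads called the same number as lower, with 19% of all tested genes lower by that tool.

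**Figure D1:**
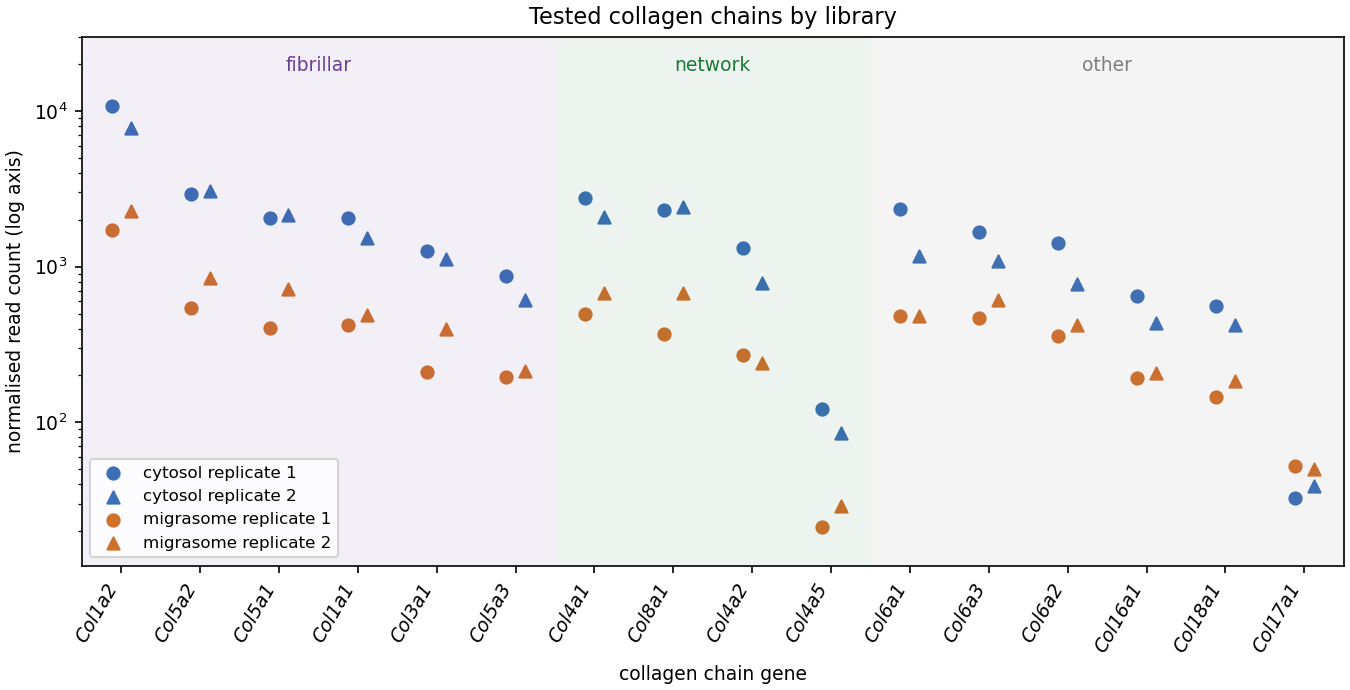
Normalised read counts (log axis) of the 16 tested collagen chains in each of the 4 libraries, by class, with circles for replicate 1 and triangles for replicate 2. Both migrasome points lie below both cytosol points for 15 chains, from Col1a2 at 7740 or more in cytosol and 2287 or less in migrasome, and above them for Col17a1.

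Fibrillar chains fell in 6 of 6 tested cases (median -2.0), beside 17.7% lower and 8.68% higher of all tested genes. These shares also stand beside the counts of network and other chains below. Col1a2, which encodes the second chain of type I collagen and lies on chromosome 6 (4504814 to 4541544, plus strand, GRCm38), stood at 10736 and 7740 in the cytosol libraries and at 1715 and 2287 in the migrasome libraries. It was the most abundant collagen mRNA in every library, and it was 4.62-fold lower in migrasome by the means (difference -2.20 ± 0.25, limma adjusted p = 0.00055). Col1a1, the partner chain (chromosome 11, 94936224 to 94953042, plus strand), stood at 2068 and 1523 in cytosol and at 421 and 487 in migrasome, a difference of -1.97 ± 0.22. In both genes the fractions were far apart compared with their replicates.

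Col3a1, which encodes type III collagen of elastic tissues, stood at 1263 and 1119 in cytosol and at 211 and 399 in migrasome (-2.03 ± 0.29). Its migrasome libraries were further apart, relative to their level, than those of any other tested chain, yet both lay well under the cytosol libraries. Type V collagen, a minor component that starts and limits fibril growth, had all 3 of its chains among the tested genes. Col5a2 stood at 2925 and 3065 in cytosol and at 544 and 842 in migrasome (-2.14 ± 0.24). Col5a1 stood at 2053 and 2154 against 406 and 724 (-1.95 ± 0.27), and Col5a3 at 872 and 615 against 195 and 215 (-1.83 ± 0.23). In all 3 type V chains both migrasome libraries lay below both cytosol libraries, as for 36.3% of all tested genes. No difference between the chains was tested.

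Network chains fell in 4 of 4 tested cases (median -2.01). Col8a1, a short-chain collagen of vessel walls and the cornea on chromosome 16 (57624258 to 57754737, minus strand), had the lowest difference of the tested chains on the log2 scale, within 1 SE of Col1a2, which fell more by the means. It stood at 2312 and 2405 in cytosol and at 368 and 674 in migrasome, which is 4.53-fold lower by the means (-2.24 ± 0.28, limma adjusted p = 0.00063). The basement membrane chains Col4a1, Col4a2 and Col4a5 fell by nearly the same amount. Col4a1 stood at 2751 and 2070 in cytosol and at 499 and 682 in migrasome (-2.03 ± 0.24), and Col4a2 at 1317 and 785 against 272 and 242 (-1.98 ± 0.26). Col4a5, an X-linked chain and the least abundant gene that fell, stood at 122 and 85.0 against 21.2 and 29.0 (-1.99 ± 0.33).

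Among the other collagens 5 of 6 tested chains fell, and the median of the 6 was -1.42. Type VI collagen, which forms beaded filaments between cells and fibres, had 3 tested chains with a median of -1.43. Col6a1 stood at 2344 and 1164 in cytosol and at 479 and 483 in migrasome (-1.78 ± 0.30), so its cytosol libraries were a factor of about 2 apart while its migrasome libraries were level. Col6a3 stood at 1666 and 1081 against 470 and 612 (-1.32 ± 0.25), the smallest decrease of those called. Col6a2 stood at 1418 and 777 against 359 and 422 (-1.43 ± 0.28, limma adjusted p = 0.0058). The cytosol libraries differed in the same direction for the nuclear-retained RNAs Malat1 (10534 and 5593), Neat1 (728 and 278) and Kcnq1ot1 (100.1 and 70.6). All 3 were lower in both migrasome libraries (Malat1 at 5102 and 3882), as for 36.3% of all tested genes, and none passed the test. Meg3, also listed, had at most 4 reads in a library. Whether this difference between the cytosol libraries bears on the type VI values was not tested.

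Col16a1, a fibril-associated collagen, stood at 645 and 434 in cytosol and at 192 and 207 in migrasome (-1.40 ± 0.24). Col18a1, the basement membrane proteoglycan from which endostatin is cut, stood at 562 and 421 against 146 and 183 (-1.57 ± 0.24). In these genes both migrasome libraries lay below both cytosol libraries, as for 36.3% of all tested genes. The point estimates of the 5 called chains in the other collagens, from -1.78 to -1.32, were all smaller in size than the smallest among the fibrillar and network chains, the -1.83 of Col5a3. Over the alternative settings Col6a1 ran from -2.28 to -1.27 and Col5a3 from -2.11 to -1.58, so this order was not kept in every setting. The SEs of these differences are 0.22 to 0.33, so neighbours in that order are not separated, and the difference between the classes was not tested.

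Col17a1 was the tested chain that did not fall. This gene (chromosome 19, 47646344 to 47692094, minus strand) stood at 32.6 and 39.1 in cytosol and at 52.3 and 50.01 in migrasome. Both migrasome libraries were above both cytosol libraries, as for 33.3% of all tested genes, and the difference of 0.51 ± 0.31 did not pass (limma adjusted p = 0.24). Across the alternative settings that kept it in the test it ranged from 0.24 to 0.90 and passed in none. The values rest on few reads (42 and 57 in cytosol, 37 and 38 in migrasome). Type XVII collagen is best known from basal keratinocytes, and of 6 epithelial markers Krt5 and Krt18 had no read and Epcam, Cdh1 and Krt8 had at most 1 read in a library. Krt14 gave most of the list, which summed to 4.65 and 7.54 in cytosol and 14.1 and 15.8 in migrasome. The part of such transcripts in the Col17a1 values was not tested.

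**Figure D2:**
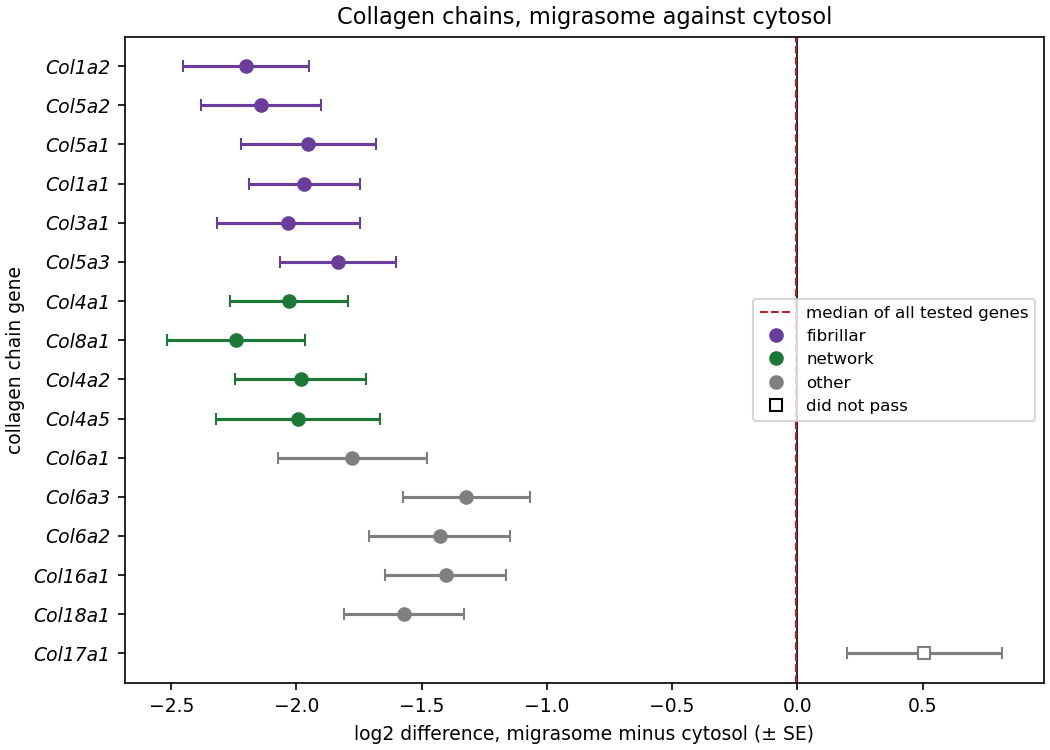
Difference between migrasome and cytosol (log2 scale, bars are ± 1 SE) for the 16 tested collagen chains, coloured by class, with the dashed line at the median of all tested genes. The 15 filled points lie between -2.24 and -1.32, and the open square of Col17a1 at 0.51 did not pass.

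The fall also shows as a smaller share of each library. All 44 genes together made up 0.567% and 0.432% of the deposited values in cytosol and 0.0866% and 0.126% in migrasome, a mean 4.70-fold lower. Fibrillar chains were 5.12-fold lower by this measure, network chains 5.09-fold and the other chains 3.44-fold. Within collagen mRNA, the other chains made up 20.2% and 15.4% in cytosol and 27.1% and 23.2% in migrasome, and the fractions do not overlap. Fibrillar chains made up 60.1% and 63.6% in cytosol and 54.8% and 57.8% in migrasome. Network chains made up 19.6% and 21.0% in cytosol and 18.1% and 19.0% in migrasome. For both classes the fractions do not overlap, narrowly so for network chains (19.6% against 19.0%). With 2 libraries a group the smallest p of an exact permutation test is 0.33, so non-overlap alone does not show a difference for any class. The class shares add up to the whole, so these falls and the rise of the other chains are not separate results. Col1a2 alone held 32.4% and 30.3% of the collagen values in cytosol and 26.8% and 26.7% in migrasome. These shares carry no test.

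Levels of different genes can be set side by side only per length. Per kilobase of annotated exon, the cytosol order was led by Col1a2 (743 ± 170), Col6a1 (400 ± 190), Col4a1 (323 ± 64.5), Col5a2 (312 ± 10.3), Col8a1 (301 ± 8.45) and Col1a1 (274 ± 58.7). In migrasome it was led by Col1a2 (161 ± 32.5), Col6a1 (110 ± 0.578), Col4a1 (79.1 ± 17.3), Col5a2 (72.3 ± 22.0) and Col1a1 (69.2 ± 7.06). From Col6a1 to Col1a1 in cytosol, and from Col4a1 to Col1a1 in migrasome, neighbouring means differ by less than their summed SDs. The order also depends on the length used. Col8a1 has 7833 bases of annotated exon but 5108 in the transcript with the longest coding region, and Col6a1 4380 and 4100. Col4a5 and Col17a1 were lowest of the tested chains in cytosol, at 15.4 ± 3.87 and 5.96 ± 0.77. In migrasome the order of this last pair was turned, with Col4a5 at 3.73 ± 0.81 and Col17a1 at 8.51 ± 0.27.

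Many collagens are built from different chains of 1 type, and the mRNA ratio of such chains within each library was computed for the 10 pairs of tested chains of the same type. Col1a1 to Col1a2, whose protein has 2 chains of the first to 1 of the second, had a ratio per exon length of 0.365 and 0.373 in cytosol and 0.465 and 0.403 in migrasome. Counted per length of the transcript with the longest coding region, the mean ratios were 0.176 and 0.207, so Col1a2 mRNA exceeded Col1a1 mRNA by either length. Col4a1 and Col4a2 lie head to head on chromosome 8, with RefSeq starts at 11312826 and 11312805 (GRCm38.p6). Their starts are 21 bases apart, and their 300-base promoter windows share 78 bases. The ratio of Col4a1 to Col4a2 was 1.85 and 2.34 in cytosol and 1.63 and 2.50 in migrasome, so it differed more between replicates than between fractions. Col6a1 to Col6a3 showed the largest difference of the ratio, from 3.84 and 2.94 in cytosol to 2.79 and 2.16 in migrasome (-0.46 on the log2 scale). Col4a1 to Col4a5 hardly moved, at 20.3 and 21.9 in cytosol and 21.2 and 21.2 in migrasome. The migrasome ratios rest on 15 and 22 reads of Col4a5, so their closeness is no measure of precision. The fractions did not overlap in 4 of the 10 pairs, and with 2 libraries a group non-overlap alone does not show a change of a ratio. From replicate 1 to 2 the ratio moved the same way in both fractions in 9 of the 10. Pairs that share a chain are not independent, and no ratio was tested.

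**Figure D3:**
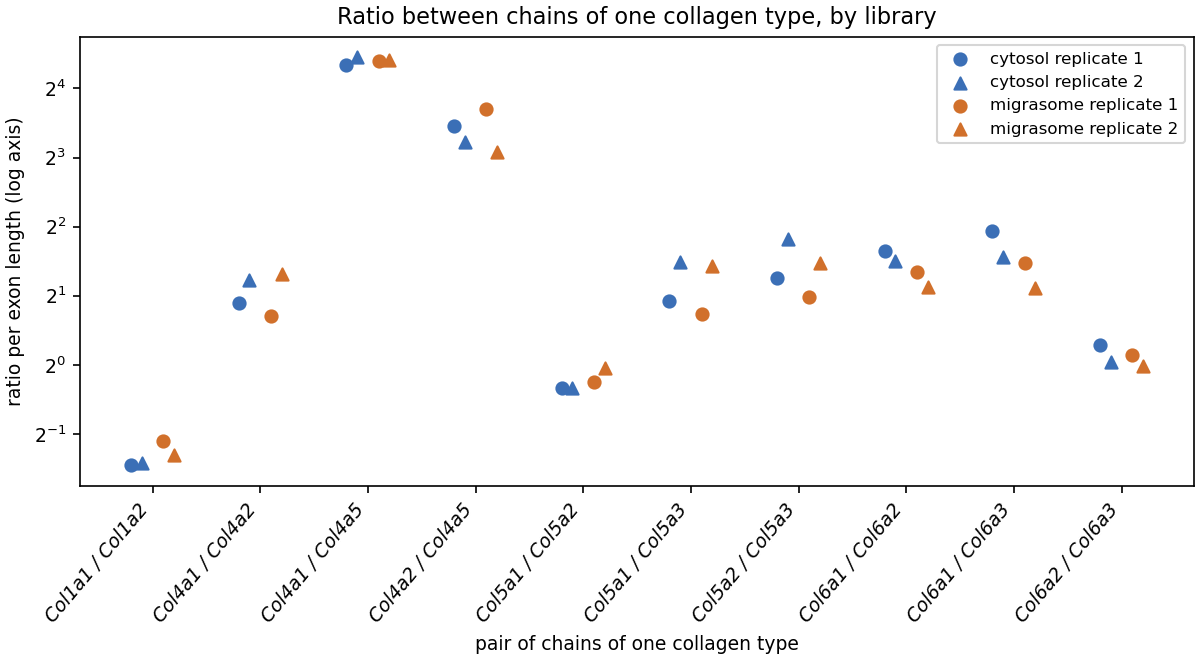
Ratio of normalised counts per exon length (log2-spaced axis) between 2 chains of 1 collagen type, in each of the 4 libraries. The Col4a1 to Col4a5 ratio is near 21 in all libraries. The fractions do not overlap in 4 of 10 pairs. Of these, Col6a1 to Col6a2 and to Col6a3, which share a chain, are lower in migrasome. Col1a1 to Col1a2 and Col5a1 to Col5a2 are higher. No ratio was tested.

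The tested chains were also set against features of their coding sequences, as a description across 16 genes that share the same 4 libraries. The share of codons inside Gly-X-Y runs (at least 5 repeats in a row) was 12.4% in Col6a3, 30.3% in Col18a1, 32.1% in Col6a1 and 31.9% in Col6a2, and 58.8% to 79.5% in the fibrillar and network chains. Across the 16 chains, those with more of their coding region in repeats had larger decreases (Spearman rho -0.67, and -0.64 over 15 chains without Col17a1). Among the fibrillar and network chains alone this order is not seen at the extremes. Col8a1 had the largest decrease (-2.24) and Col5a3 the smallest (-1.83), with nearly the same share in runs (61.0% and 61.1%). Col16a1 goes against this order, with 62.8% of codons in runs and a difference of -1.40. The number of hydrophobic codons among the first 25 gave a rho of -0.54, and -0.44 without Col17a1. The mean level in cytosol, which enters the difference itself, gave -0.65 and -0.57. Exon length gave -0.36 and -0.24, the length of the longest run -0.41 and -0.39, and the number of coding codons 0.33 and 0.41.

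**Figure D4:**
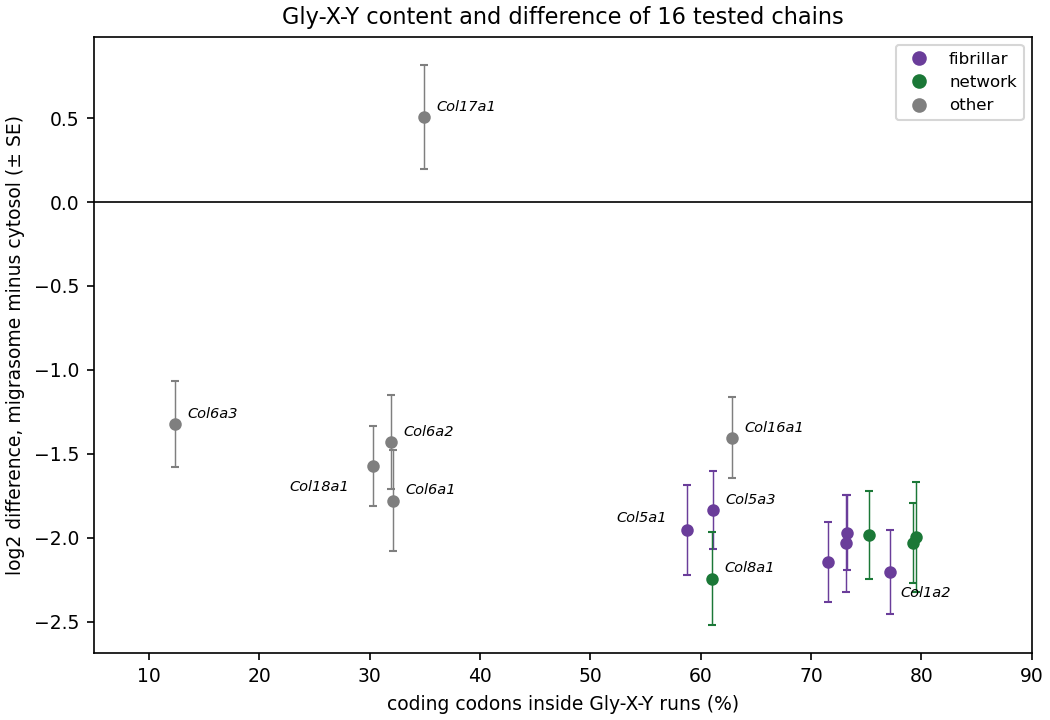
Difference between migrasome and cytosol (log2 scale, bars are ± 1 SE) against the percent of coding codons that lie in Gly-X-Y runs, for 16 tested chains coloured by class. Type VI chains and Col18a1 sit at 12.4% to 32.1% with differences from -1.78 to -1.32, and the fibrillar and network chains at 58.8% or more with differences from -2.24 to -1.83.

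The remaining 28 collagen genes had too few reads to be tested, 5 fibrillar, 5 network and 18 other chains. No read was found in any library for 7 of them, Col10a1, Col13a1, Col14a1, Col24a1, Col27a1, Col4a6 and Col6a5. For these a count of 0 allows up to the worth of 3 reads, a value of 2.33 or 2.06 in the cytosol libraries and 4.24 or 3.95 in the migrasome libraries (counting error only). Col11a2, a minor chain of cartilage fibrils, came closest to the filter with 14 reads in each cytosol library against 4 and 3 in migrasome, values of 10.9, 9.60, 5.66 and 3.95. Col7a1, the anchoring fibril collagen of skin, had 23 reads in cytosol replicate 1 and 3 or 4 in each other library, so 1 library carried it. The tested chain nearest the filter from above was Col17a1. The other 19 with a read had at most 16 reads over all 4 libraries. Col9a1 (16) and Col2a1 (15), both cartilage collagens, and Col20a1 (14) had the most. The rest were Col11a1, Col12a1, Col15a1, Col19a1, Col22a1, Col23a1, Col25a1, Col26a1, Col28a1, Col4a3, Col4a4, Col6a4, Col6a6, Col8a2, Col9a2 and Col9a3. Reads occurred only in migrasome for 8 of the untested genes and only in cytosol for 2, at counts too low to read a direction. Testing every gene with a read brings such genes in and moves the median of the collagen chains to -0.45 and that of the other chains to 0.23, while the calls stay at 15 lower and 0 higher.

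Col4a3bp has a symbol that begins like a collagen gene, but it encodes the ceramide transfer protein of the cytosol and is left out by the rule. It stood at 859 and 800 in cytosol and at 668 and 745 in migrasome, a difference of -0.23 ± 0.20 that did not pass (limma adjusted p = 0.39).

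Genes whose products modify, fold, export, trim and cross-link collagen were listed as the rest of the pathway. Of the 36 in the list 30 were tested, 26 fell and none rose (median -1.83). Of all tested genes 17.7% were lower and 8.68% higher, which also stands beside the counts by step below. Modification genes fell in 11 of 11 tested cases (median -1.91). P4hb and P4ha1, subunits of the prolyl 4-hydroxylase that stabilises the helix, stood at 8267 ± 1.35 and 735 ± 33 in cytosol and at 2083 ± 345 and 211 ± 64.5 in migrasome. The lysyl hydroxylase genes Plod1 (-2.30 ± 0.30), Plod2 (-1.91 ± 0.35) and Plod3 (-2.09 ± 0.20) and the galactosyltransferase gene Colgalt1 (-2.29 ± 0.24) fell as well. P3h1, a prolyl 3-hydroxylase, had the largest decrease of the list, from 251 ± 28.1 to 48.3 ± 4.29 (-2.35 ± 0.25).

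The 4 folding genes fell too (median -1.84), among them the collagen chaperone gene Serpinh1, at 10306 ± 141 in cytosol and 2779 ± 538 in migrasome, and the cyclophilin gene Ppib, at 2504 ± 158 and 806 ± 95.9. Genes for the cleavage of the propeptides fell in 5 of 5 tested cases (median -1.64), among them Bmp1 at -2.11 ± 0.33 and the enhancer gene Pcolce2 at -1.28 ± 0.24. Adamts14 stood at 30.3 and 41.2 in cytosol and at 7.07 and 6.58 in migrasome (-2.21 ± 0.42). It passed the filter only through its cytosol libraries, so its place among the 5 and the 26 is no support for a fall. The lysyl oxidase family, which cross-links chains outside the cell, fell in 4 of 4 tested cases (median -1.81), with Loxl3 at -2.06 ± 0.25 and Loxl1 at -1.26 ± 0.30. Lox itself had 4 and 5 cytosol reads against 1 and 0 and was not tested. Loxl1 no longer passed when eBayes used no trend (limma adjusted p = 0.054), that of Adamts14 without cytosol replicate 2 (0.085), and that of Fkbp14 without either cytosol library and with no filter (up to 0.083).

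Export and regulation was the step where the listed genes were split. Mia3, the membrane protein TANGO1 that loads procollagen into transport carriers, fell from 414 ± 34 to 108 ± 8.03 (-1.94 ± 0.22), and its partner Mia2 by 1.20 ± 0.25 on the log2 scale. Sec23a and Sec24d, which encode soluble coat proteins of those carriers, stood at 337 and 298 and at 386 and 293 in cytosol, and at 447 and 437 and at 468 and 461 in migrasome. Their differences of 0.48 ± 0.21 and 0.46 ± 0.22 did not pass (limma adjusted p = 0.11 and 0.14). Both migrasome libraries were above both cytosol libraries for each, as for 33.3% of all tested genes. The membrane channel gene Tmem38b (-0.65 ± 0.31) and the transcription factor gene Creb3l1 (0.08 ± 0.34) did not pass either.

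**Figure D5:**
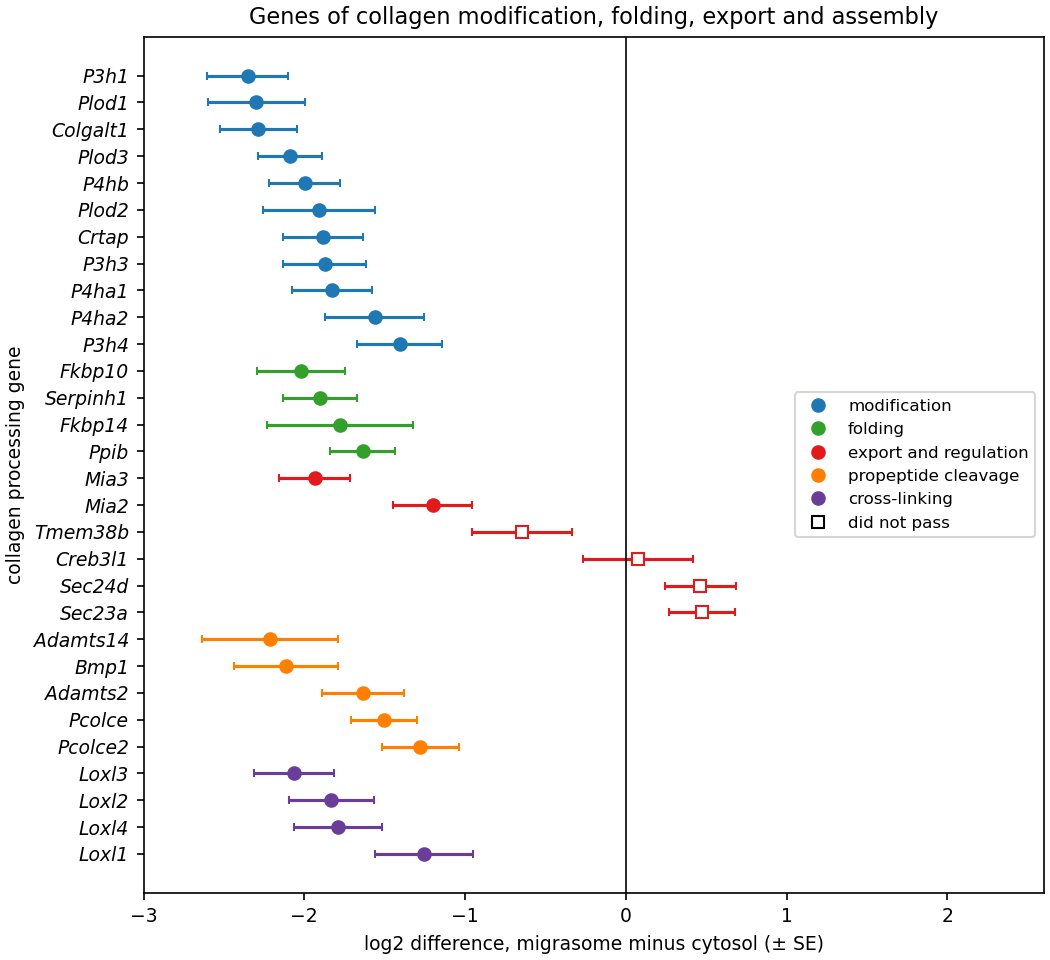
Difference between migrasome and cytosol (log2 scale, bars are ± 1 SE) for the 30 tested genes of collagen modification, folding, export, cleavage and cross-linking, coloured by step. The 26 filled points lie between -2.35 and -1.20, and the 4 open squares, all in export and regulation, did not pass.

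Of 8 collagen receptor genes 4 were tested. Itgb1, the integrin subunit shared by the collagen-binding integrins, fell (-1.71 ± 0.20), as did the receptor kinase gene Ddr1 (-2.05 ± 0.27) and the collagen uptake receptor gene Mrc2 (-1.91 ± 0.33). Ddr2, the receptor kinase for fibrillar collagen, rose by 2.67 ± 0.24, at 1491 ± 264 in cytosol and 9522 ± 1952 in migrasome. Of 32 genes of the matrix other than collagens, the group most like the chains, 18 were tested. Of these 15 fell and none rose, with a median of -1.64, beside 17.7% lower and 8.68% higher of all tested genes. Ecm1, which was not called, passed the filter only through its cytosol libraries (12.4 and 13.7 against 2.83 and 5.26 in migrasome). Its place in that median is no support for a fall. The 4 most abundant matrix genes were Sparc (-2.02 ± 0.22), Fbln2 (-2.27 ± 0.23), Fn1 (-1.01 ± 0.29) and Lamb1 (-1.65 ± 0.23). The fall of the collagen chains is therefore not shown to be particular to them. The call of Fn1 was lost without cytosol replicate 1 and in 2 other settings (limma adjusted p up to 0.33).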

How the data were processed

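RNA sequencing of migrasomes and cytosol was deposited by the authors as 1 table of 49568 genes. The deposited unit is a size-factor-scaled signal: within a library, 100% of values came out as whole reads (tolerance 0.001) once divided by the worth of 1 read. The submitters' processing notes list STAR and HTSeq, DESeq, cutadapt, Trimmomatic and FastQC, with the build GRCm38. The annotation, the strand setting and the handling of multi-mapped reads were not given in the sources used here. Libraries were grouped by title. Replicates differed beyond sampling noise (chi-square per degree of freedom 17.6 in cytosol and 27.9 in migrasome over genes with at least 20 reads).

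Genes at 10 or more in 2 or more libraries were tested on log2(value + 1) with limma 3.58.1 (eBayes with a trend, R 4.3.3), which understates the change of low genes. The gene set was kept in all settings but those that change the filter. edgeR 4.0.16 and DESeq2 1.42.0 ran on the recovered reads, and the fit was checked on simulated data. With 2 libraries a group, the smallest p of an exact permutation test is 0.33. Positions, exon lengths and coding sequences came from GENCODE M21 (GRCm38), in which all 44 chains were found, and the annotated exons of tested chains shared at most 141 bases with another gene. The rule for named genes took all chains, the 4 most abundant genes of each further list and those called against their list's direction; other processing and receptor genes were named after their values were seen. Members and lists were chosen with earlier results of these data known. The start of 1 further coding sequence is not reported here.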

Additional observations from a re-analysis of the deposited data

How the results depend on the processing

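The direction and side of the threshold of the tested chains held in every alternative run, 15 chains in 14 and Col17a1 in all but a mean of at least 50, which leaves it out (pseudocount, filter, scaling, eBayes without a trend, edgeR, DESeq2, replicate block, each left-out library), in 223 of 223 values, with the calls at 15 lower and 0 higher in each. Scaling to the same total moved the median of all genes to -0.27, quantile normalization to 0.11 and a mean of at least 50 to 0.055, and the first 2 moved the collagen median to -2.23 and -1.98. Without a filter the medians were -0.45 for collagen chains, 0.23 for other chains and -0.84 for receptors. The processing median was -2.10 with the same total, and leaving out single libraries gave -2.01 to -1.56. Over left-out libraries the fibrillar median ran from -2.39 to -1.80, the network median from -2.24 to -1.78, the median of other chains from -1.73 to -1.06, that of all chains from -2.11 to -1.67, and the difference in collagen share from -0.46 to -0.33 percentage points. Of all genes, 1147 to 2800 were lower and 231 to 2085 higher without single libraries, against 1919 and 943 (1147 and 286 without cytosol replicate 1, 1183 and 231 without cytosol replicate 2, 2085 higher without migrasome replicate 2; the lone library is assumed to vary like the other group), and the higher count was 393 without a filter, 322 with the same total and 483 without a trend. With the replicate block, 2621 were lower and 1802 higher; deviations of same-numbered libraries correlated at 0.23 over genes, but 2 libraries a group cannot show that numbers pair them, and the block changed no collagen call. Uncalled values changed sign for Creb3l1 (-0.19 with the same total, -0.12 to 0.28 over left-out libraries) and Mfap5 (-0.13 with the same total, -0.68 to 0.94 over left-out libraries). With 2 libraries a group, precision is limited by their number, and the 28 untested chains had too few reads to show a difference at this depth. The cause of these changes was not tested.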

Other observations

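Proteins outside the collagen family can carry a short collagen-like domain. Of 31 such genes, listed after the values of Colec12 were seen, 30 were in the table and 2 were tested. Colec12, a scavenger receptor of the plasma membrane, stood at 1091 and 1281 in cytosol and at 298 and 411 in migrasome, and fell by 1.75 ± 0.23 on the log2 scale (limma adjusted p = 0.00073). C1qtnf6, a secreted protein gene, stood at 48.1 and 46.6 against 28.3 and 27.6 and did not pass (-0.74 ± 0.32, limma adjusted p = 0.11). Its migrasome libraries both lay below both cytosol libraries, as for 36.3% of all tested genes.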
